A study of Mus musculus with 6 samples.

Results

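The deposited list of Jun binding sites in rib chondrocytes of newborn mice was examined around the genes that encode AP-1 itself: Jun, Junb, Jund, Fos, Fosb, Fosl1, Fosl2 and Atf3. A peak belonged to a gene when its centre lay within 50 kb, on either side, of a fixed mm9 position given for that gene, called its anchor here. By this rule 171 of the 99162 listed peaks were members, and no peak belonged to more than 1 gene. The rule does not state which part of a gene an anchor marks, so distances from it are not distances from a transcription start.

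The peaks came from 1 ChIP-seq library for Jun, prepared beside 1 input library, both from untreated wild-type ICR mice at postnatal day 1. Chondrocytes were freed from the ribs by enzyme digestion and cross-linked at once, and 20000000 cells entered the precipitation with 9 μg of antibody. How many animals gave these cells is not stated in the labels. The series also holds 4 RNA-seq libraries of sorted Col10a1mCherry chondrocytes from Swiss Webster mice, whose expression values were not used here. The identity of the cells could therefore not be checked against chondrocyte markers, and nothing below says whether any of the 8 genes was transcribed.

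AP-1 is a dimer of basic leucine zipper proteins. Proteins of the Jun family pair with each other or with proteins of the Fos family, which do not form stable dimers among themselves, and Atf3 can also pair with Jun proteins. The dimers bind sequences of the form TGANTCA, with N read as any base in the search below, or the related cAMP response element TGACGTCA. The Jun promoter is a textbook case of a gene that its own product can activate. Several of these genes are switched on within minutes of a growth signal or stress. In the skeleton, AP-1 proteins are known for their part in cartilage, bone and osteoclasts.

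The promoters of the family are shown first, since the Jun promoter holds a variant of these sites. RefSeq promoters of build GRCm38.p6 matched 7 of the 8 genes. In the 250 bases before the annotated start, read on both strands, none of the 7 held TGANTCA, which 6.75% of all 32851 promoters of that length held. None held TGACGTCA, found in 1.55% of all promoters. TGACATCA, a variant site known from the Jun promoter, was found in 2.93% of all promoters and in that of Jun alone among the 7, with its first base 45 bases before the start. A different word, with T in place of G as its second base, and a shorter one were added after the promoters had been seen. TTACNTCA was found in 2.86% of all promoters and in those of Jun and Atf3, and TGACG, which lies within TGACGTCA, in 17.8% of all promoters and in those of Junb, Fos, Fosb and Atf3. In Atf3 the TGACG match lies on the other strand, inside the TTACNTCA match. In the stretches that follow, each the 180 bases before the start on the gene's own strand, capitals mark these matches:
Jun: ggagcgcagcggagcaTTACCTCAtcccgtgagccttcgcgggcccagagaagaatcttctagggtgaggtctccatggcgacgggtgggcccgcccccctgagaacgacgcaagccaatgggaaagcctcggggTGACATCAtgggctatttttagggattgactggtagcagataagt
Junb: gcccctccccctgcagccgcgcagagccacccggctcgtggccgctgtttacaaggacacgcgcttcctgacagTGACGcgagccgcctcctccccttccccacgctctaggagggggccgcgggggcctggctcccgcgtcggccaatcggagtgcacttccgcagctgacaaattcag
Fos: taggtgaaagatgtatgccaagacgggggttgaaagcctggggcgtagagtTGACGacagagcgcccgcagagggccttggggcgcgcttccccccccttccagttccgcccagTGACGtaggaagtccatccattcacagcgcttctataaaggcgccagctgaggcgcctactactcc
Fosb: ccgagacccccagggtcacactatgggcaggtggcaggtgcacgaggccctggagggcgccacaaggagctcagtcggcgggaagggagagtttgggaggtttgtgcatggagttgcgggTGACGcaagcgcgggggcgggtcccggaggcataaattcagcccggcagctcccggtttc
Atf3: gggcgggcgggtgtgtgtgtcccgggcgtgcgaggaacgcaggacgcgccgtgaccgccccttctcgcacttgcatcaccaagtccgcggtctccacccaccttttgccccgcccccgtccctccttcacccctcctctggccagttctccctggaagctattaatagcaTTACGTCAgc

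In GRCm38.p6 these stretches are chr4:95052223-95052402 on the minus strand for Jun, chr8:84978749-84978928 on the minus strand for Junb, chr12:85473710-85473889 on the plus strand for Fos, chr7:19310046-19310225 on the minus strand for Fosb and chr1:191183334-191183513 on the minus strand for Atf3. The promoters of Jund and Fosl2 held none of the words searched. Fosl1 was not matched. The peaks are on mm9 and coordinates were not converted, so no peak was placed on a promoter, and a match describes reference sequence only.

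All 8 genes had many Jun peaks around them. The windows held 12 to 32 peaks each, with a median of 22 and a mean of 21.4. Tiles of 100 kb, as long as a window, laid over the whole list held a mean of 3.87 peaks and a median of 2, and 63.0% of them held at least 1 peak. The mean window was thus 5.53 times as full as the mean tile. At least 12 peaks, the number in the emptiest window, were present in 8.91% of the tiles. Many tiles hold no gene, and tiles around other genes could not be picked out without mm9 gene positions, so this background is that of the genome and not of genes.

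The genes of the Jun family had the fewest peaks. These genes encode the proteins that can pair with themselves as well as with Fos proteins. Jun had 13 peaks (exact Poisson 95% interval 6.92 to 22.2), a number reached by 7.58% of the tiles. Junb, whose product is often a weaker activator than Jun, had 14 peaks (7.65 to 23.5), reached by 6.29% of the tiles. Jund, the member expressed in most tissues without a stimulus, had 12 peaks (6.20 to 21.0).

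The other 5 windows held 21 to 32 peaks and did not overlap the Jun family. Fosl2, which encodes Fra-2, had 21 peaks (13.0 to 32.1), reached by 1.87% of the tiles. Fos, the classical immediate early gene, had 23 peaks (14.6 to 34.5), reached by 1.31% of the tiles. Fosb, a close relative of Fos, and Atf3, a stress-induced member of the ATF group, had 28 peaks each (18.6 to 40.5), reached by 0.667% of the tiles. Fosl1, which encodes Fra-1, was the fullest with 32 peaks (21.9 to 45.2), reached by 0.370% of the tiles.

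**Figure D1:**
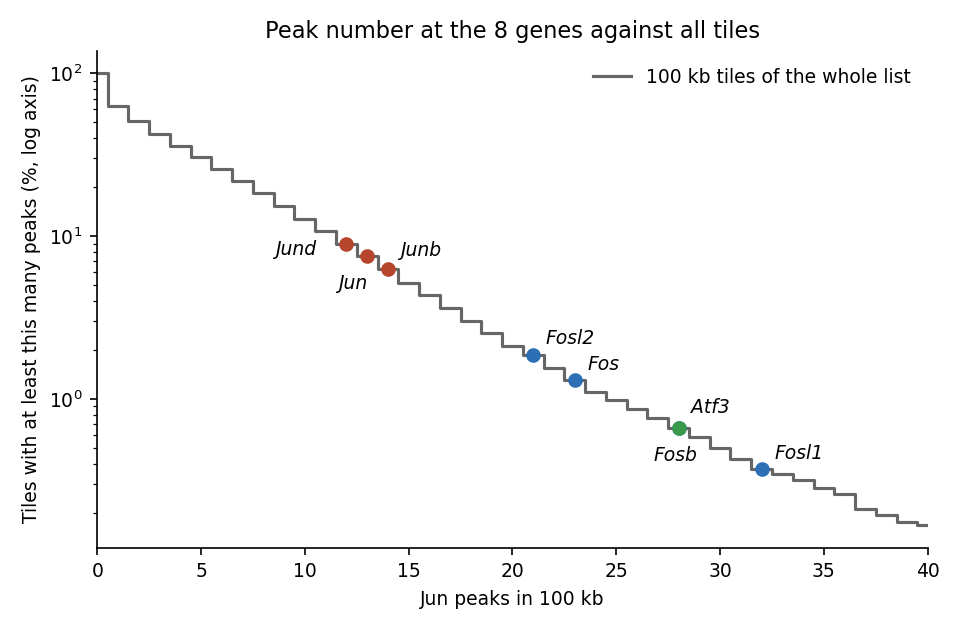
The grey line gives the percentage of 100 kb tiles of the whole list (log axis) that hold at least the number of Jun peaks on the horizontal axis, and the points place the 8 gene windows on it (red, Jun family; blue, Fos family; green, Atf3; Fosb and Atf3 coincide at 28 peaks). The 3 Jun family windows sit at 12 to 14 peaks and the other 5 at 21 to 32.

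With 1 list and no replicate no test was made of this difference, the grouping by family was chosen with the counts known, and the intervals cover counting error alone, which understates the error for peaks that sit together. Neighbouring intervals in the order Jund, Jun, Junb, Fosl2, Fos, Fosb, Atf3 and Fosl1 overlap throughout. The outermost ones, of Jund (6.20 to 21.0) and Fosl1 (21.9 to 45.2), do not, and neither is a test of the families. The gap between the Jun family and the others was seen with windows of 25 kb to a side (4 to 10 against 18 to 22 peaks) and with peaks within 1000 bp merged (9 to 11 against 14 to 19 regions). It was not seen with windows of 10 kb to a side (3 to 7 against 6 to 17 peaks), with 100 kb to a side (21 to 35 against 31 to 42), or in the last 50% of the list (4 to 8 against 5 to 15).

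The peaks gathered towards the anchors. Within 10 kb lay 69 of the 171 peaks (40.4%, exact binomial 95% interval 32.9 to 48.1), where 20% of the window's length lies. This interval covers counting error alone and is too narrow for peaks that sit together. With all anchors moved by 5 kb up or down the share was 40.8% and 40.2%, so the gathering is not placed more finely than that. Without Atf3 it was 36.4%. By gene the share within 10 kb was lowest at Jun, with 3 of 13 peaks and none at 5 to 10 kb. It was highest at Atf3, with 17 of 28. Pooled over the genes, the density was 5.50 peaks per 10 kb within 5 kb of the anchor, 3.13 at 5 to 10 kb, 2.25 at 10 to 25 kb and 1.20 at 25 to 50 kb. Between 50 and 100 kb, outside the windows, it was 1.24 per 10 kb, so the innermost density was 4.44 times that of these flanks. Both exceeded the 0.387 peaks per 10 kb of the mean tile.

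**Figure D2:**
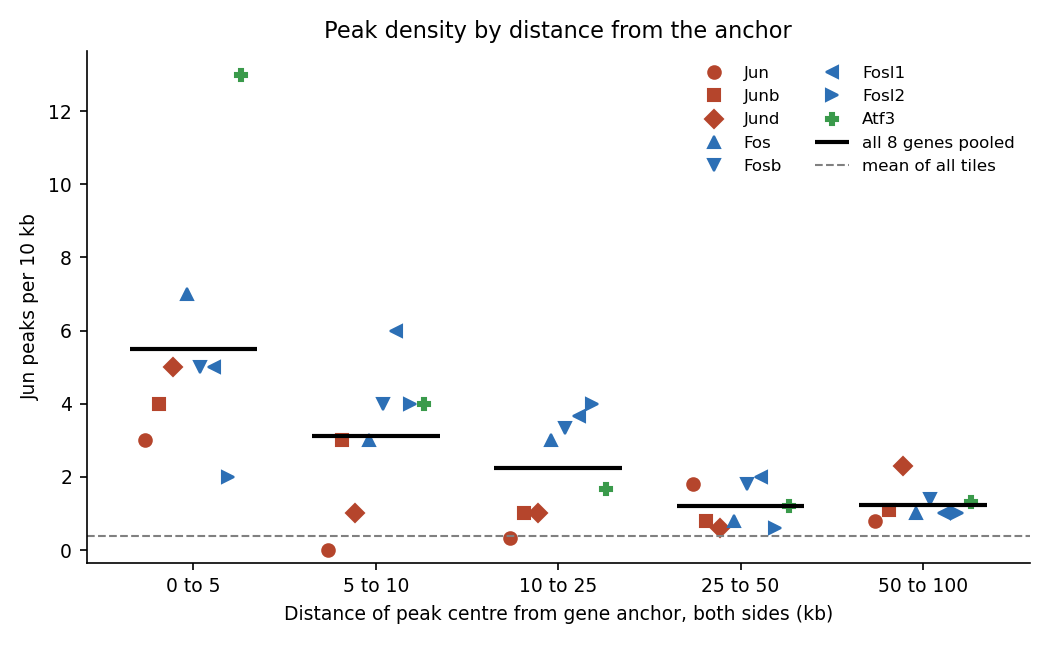
Each point is the number of Jun peaks per 10 kb at 1 gene, in bands of distance from the anchor on both sides (red, Jun family; blue, Fos family; green, Atf3). Black bars are the 8 genes pooled, which go from 5.50 in the innermost band to 1.24 at 50 to 100 kb, and the dashed line is the mean of all tiles, 0.387.

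The genes differed in how steep this was. Atf3 had 13 of its 28 peaks within 5 kb, 10.0 times its flank density, and Fos had 7 of 23, or 7 times. Jund, Fosb and Fosl1 had 5 peaks each within 5 kb, Junb 4 and Jun 3. Fosl2 had 2, and its bands from 5 to 10 kb and from 10 to 25 kb, with 4 and 12 peaks, were both denser, at 4 peaks per 10 kb each. Around Jund the flanks held more peaks than the window, 23 against 12, whereas at each of the other 7 genes the window held more than its flanks.

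**Figure D3:**
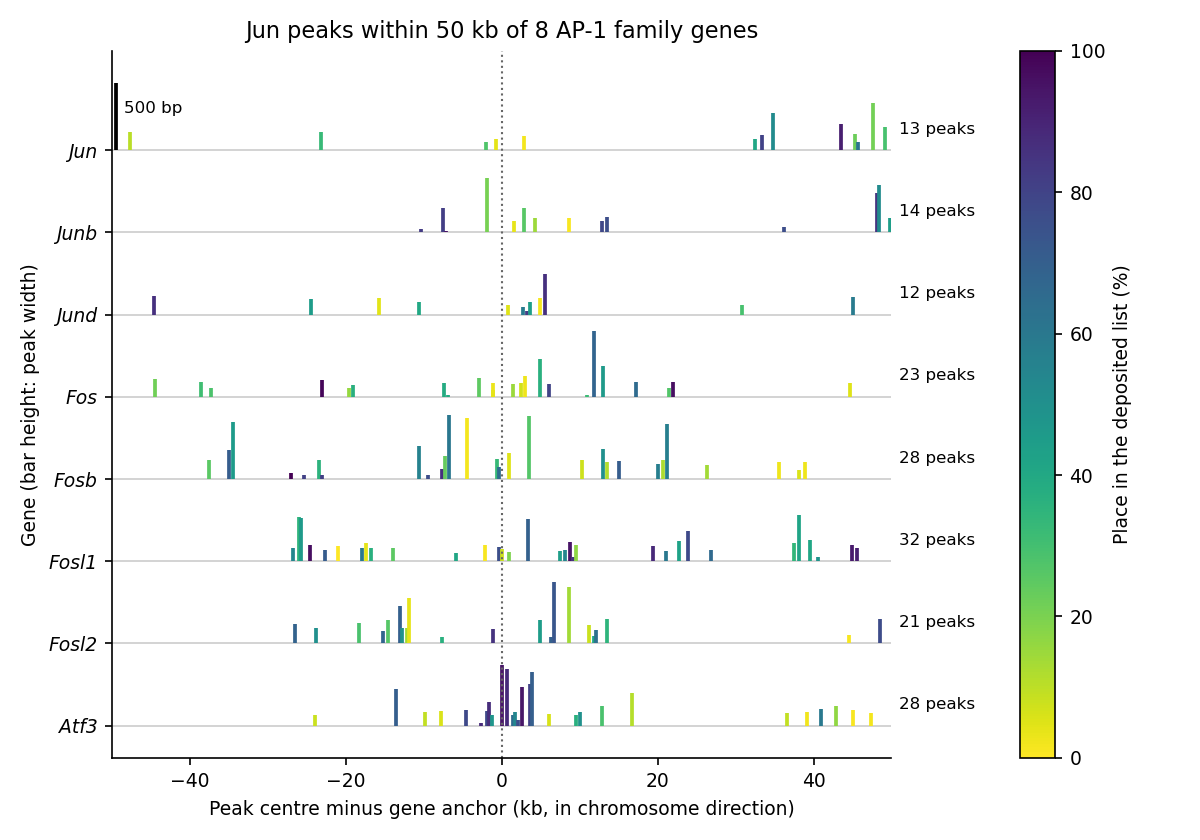
Every Jun peak within 50 kb of the 8 anchors is drawn at the distance of its centre from the anchor (kb), with bar height giving the peak's width (scale bar 500 bp) and colour its place in the deposited list. Tall dark bars stand at the Atf3 anchor, where the 13 peaks within 5 kb have a median place of 78.0%, and Jun is empty for 29.7 kb on the higher side.

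At Jun, 3 peaks lay near the anchor and most of the others far from it. On chromosome 4 of mm9, whose anchor is 94716000, the 3 near peaks ran from 94713893 to 94713956 (64 bp), from 94715254 to 94715338 (85 bp) and from 94718832 to 94718937 (106 bp). The last of these was the earliest of the window's peaks in the list, at 1.81% of its length, and the middle one stood at 4.25%. The next 29.7 kb on the higher side held no peak, and 8 of the 13 peaks lay beyond it, between 32.5 and 49.1 kb from the anchor. The widest of them, 348 bp, ran from 94763497 to 94763844. No more than 2 peaks chained within 1 kb of each other, the first such pair lying from 94748505 to 94749404. In GRCm38.p6 the protein-coding genes next to Jun are Mysm1 and Fggy.

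Junb and Jund lie on the same chromosome, far apart. At Junb (chromosome 8, anchor 87501000) the widest peak, of 401 bp, lay 1.85 kb from the anchor, from 87498946 to 87499346. The peak nearest the anchor was 83 bp wide (87502508 to 87502590) and stood at 3.77% of the list. The earliest stood at 0.792% and lay 8.60 kb away, from 87509545 to 87509648, 104 bp wide. The remaining near peaks measured 180 bp (from 87503789) and 104 bp (from 87505176). Its fullest groups were 3 pairs, the first from 87493390 to 87493842. Junb lies between Prdx2 and Hook2.

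At Jund (anchor 73222000) all 5 peaks within 5 kb lay on the higher side. Their widths were 71, 55, 27, 92 and 125 bp in the order of position, from 73222805 to 73226917. The first and the last of these stood at 4.89% and 1.30% of the list, and the 3 between them, which chained into a group of 975 bp, stood at 58.6%, 81.7% and 44.3%. The widest Jund peak, 300 bp, came next (73227458 to 73227757) and was late in the list, at 86.3%. Jund lies between Lsm4 and Iqcn.

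At Fos (chromosome 12, anchor 86816000) most of the near peaks were early in the list. A pair of overlapping peaks, from 86814848 to 86814952 (105 bp) and from 86814905 to 86814957 (53 bp), stood at 3.08% and 4.12% of the list. Across the anchor 2 more early peaks lay from 86818385 to 86818490 (106 bp, at 6.86%) and from 86818944 to 86819099 (156 bp, at 2.45%). The 3 remaining peaks within 5 kb measured 141 bp (from 86813009), 94 bp (from 86817381) and 284 bp (from 86820724), at 24.7%, 15.0% and 36.4%. Fos thus had 4 of 7 near peaks among the first 10% of rows, and 1 of its 16 farther ones. The near and farther peaks had like median widths, 106 and 105.5 bp. Its widest peak, 487 bp from 86827563 to 86828049, lay 11.8 kb away at 68.1%. Its fullest groups were 6 pairs, the first from 86796342 to 86796978. The protein-coding genes next to Fos are Tmed10 and Jdp2, the latter encoding another Jun partner.

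Fosb (chromosome 7, anchor 19892000) had wide peaks near its anchor. A peak of 451 bp from 19887296 to 19887746 was also the earliest of its window, at 1.59% of the list, and 1.43% of all listed peaks were as wide or wider. A peak of 470 bp lay from 19895324 to 19895793, and the window's widest, 472 bp, from 19885060 to 19885531, in a group of 3 peaks from 19884350 that was 1 of its 2 fullest. Between the first 2 lay peaks of 147, 92 and 192 bp, of which the last (19892845 to 19893036) stood at 4.73% of the list. Among all listed peaks 14.0% reached 200 bp, and in the Atf3 window 7 of 28 did (25%). In the Fosb window 8 of 28 peaks reached 200 bp (28.6%), the highest share of the 8 genes. A second set of early peaks stood at the far end of the window, where the peaks 35.5, 38.1 and 38.9 kb from the anchor were at 2.61%, 5.82% and 2.60% of the list. Fosb lies between Rtn2 and Ercc1.

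Around Fosl1 (chromosome 19, anchor 5451000) 32 peaks lay on both sides of the anchor, 14 on the lower and 18 on the higher. No peak of the window lay on the lower side beyond 26.8 kb, and from there upwards neighbouring centres in the window were at most 10.6 kb apart. The peak at the anchor itself ran from 5450945 to 5451038 (94 bp, at 7.79%), and one of 121 bp from 5448786 to 5448906 stood at 1.14%. A group of 5 peaks chained within 1 kb of each other lay from 5458492 to 5460650. The earliest peak of all 171, at place 370 of the list, was 113 bp wide and lay 21.0 kb from the Fosl1 anchor, from 5429961 to 5430073. The widest Fosl1 peak, 341 bp from 5488969 to 5489309, lay 38.1 kb away. The nearest protein-coding genes in the table are AI837181 and Ccdc85b, and the window was not divided between Fosl1 and such neighbours.

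Fosl2 (chromosome 5, anchor 32450000) had its peaks in flanking groups. On the lower side 4 peaks from 32436749 to 32438285 formed its fullest group, 11.9 to 13.1 kb from the anchor, with widths of 278, 115, 117 and 336 bp. The last of these (32437950 to 32438285) stood at 3.55% of the list. The earliest Fosl2 peak, at 1.40%, was 64 bp wide and lay 44.6 kb away, from 32494567 to 32494630. On the higher side 8 peaks lay between 4.90 and 13.5 kb, among them the widest (453 bp, 32456503 to 32456955) and another of 419 bp (32458416 to 32458834). Only 1 peak lay within 4 kb of the anchor, 104 bp wide from 32448839 to 32448942, at 85.5% of the list. Beyond 13.5 kb on the higher side 31.1 kb were empty, the longest distance between 2 neighbouring peaks of the same window. The next protein-coding genes are Babam2 and Plb1.

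Atf3 (chromosome 1, anchor 193001000) held the group with the most peaks. A run of 8 peaks chained within 1 kb spanned 4306 bp, from 193000768 to 193005073, against at most 5 peaks in such a group at the other genes. The peak at the anchor, 449 bp from 193000768 to 193001216, was the widest of the window, and its neighbour from 193001465 to 193001886 measured 422 bp. Peaks of 290, 310 and 397 bp followed between 193003517 and 193005073, the last 2 overlapping. The other 8 peaks within 5 kb measured 21 to 178 bp.

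These near peaks of Atf3 came late in the list. All 13 stood between 47.5% and 94.3% of it, with a median of 78.0%, and 0 of 13 were in its first 10%, which allows a share of up to 23.1% (3 counts of 13, for counting error). Of the 15 farther Atf3 peaks 8 were in the first 10%, the earliest (193046016 to 193046133, 118 bp) at 0.949%. Over all 8 genes 13 of 44 near peaks were that early (29.5%, 16.8 to 45.2) and 20 of 127 farther ones (15.7%, 9.89 to 23.3), so these intervals overlap. Leaving out Atf3, which goes the other way, was a choice made after the values were seen. The other 7 genes had 13 of their 31 near peaks that early (41.9%, 24.5 to 60.9) and 12 of 112 farther ones (10.7%, 5.66 to 18.0). Of these 7 genes, Fos gave 4 of the 13, and Fosl2 had 0 of its 2 near peaks there. The intervals take peaks as independent, which overlapping ones such as the Fos pair are not, so they are too narrow. Protein-coding neighbours of Atf3 are Fam71a and Nenf.

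**Figure D4:**
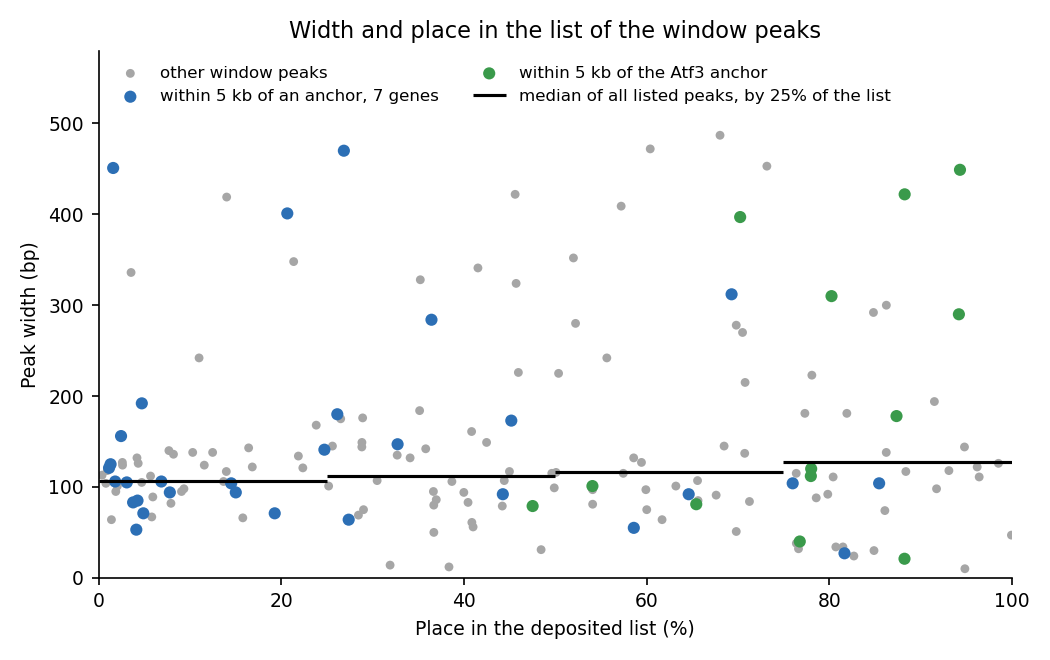
Width (bp) of each of the 171 window peaks against its place in the deposited list (%), with peaks within 5 kb of an anchor in blue (7 genes) and green (Atf3) and all others in grey; black lines are the median widths of all listed peaks for each 25% of the list. Of the blue points 13 of 31 lie in the first 10% of the list, and all 13 green points lie at 47.5% or later, so that over all 8 genes 13 of 44 near peaks are in the first 10%.

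Over all 8 genes, 33 of the 171 peaks (19.3%, 13.7 to 26.0) came from the first 10% of rows, a part that by construction holds 10.0% of all peaks. The authors' meaning of the order is not given in the sources used here, so an early place cannot be read as a measure of strength. Each window had between 2 and 8 such peaks.

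The median peak width was close to that of the whole list. It was 115 bp (106 to 124, from order statistics) against 114 bp for all peaks. A width of 200 bp or more was found in 33 peaks (19.3%, 13.7 to 26.0), against 14.0% of all peaks, whose share lies within that interval. Peaks under 50 bp numbered 14 (8.19%, 4.55 to 13.4), against 6.30%, which also lies within the interval. Of these 14, Fosb had 4 and Junb 3, and Jun and Fosl2 had none. In successive 25% parts of the list, the share of wide window peaks was 11.5%, 15.2%, 38.2% and 17.9%, where all listed peaks gave 5.98%, 12.2%, 16.1% and 21.9%. The share under 50 bp was 0% of 52, 6.52% of 46, 0% of 34 and 28.2% of 39 window peaks, where all listed peaks gave 4.05%, 5.72%, 6.98% and 8.45%. By counting error the 0 of 52 allow a share of up to 5.77% and the 0 of 34 one of up to 8.82%.

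The window peaks had close neighbours. The nearest other peak centre lay within 1 kb for 86 of 171 (50.3%, 42.6 to 58.0), against 39.1% of all listed peaks, which is below that interval. The count was 18 of 32 at Fosl1, 16 of 28 at Fosb, 14 of 28 at Atf3, 12 of 23 at Fos and 11 of 21 at Fosl2. In the Jun family it was 6 of 14 at Junb, 5 of 12 at Jund and 4 of 13 at Jun. Fuller windows bring peaks closer together by their number alone, and this share was not corrected for it. Close peaks often count each other as neighbours, so the interval of this share, which covers counting error alone, is too narrow. The peaks covered between 1352 bp of the 100 kb at Jund and 5091 bp at Fosb.

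At the 50 kb limit of the rule, the outermost peak included was that of Junb at 49.8 kb (107 bp wide), and the first one left out was that of Fosl2 at 50.2 kb (199 bp). The next beyond the limit lay 51.1 kb from Atf3 (177 bp) and 51.3 kb from Jund (307 bp).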

How the data were processed

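The deposited file lists Jun peaks by chromosome, start and end in mm9, per the submitters' processing notes. It has no header, score, height or p-value. The name of the list carries the label FDR1, which points to a cutoff on the false discovery rate but is not explained further. Not given in the sources used here are the peak caller, the use of the input library and the read depth. The error of a single peak is therefore not known. The list was assigned to the only Jun ChIP sample. With 1 library there is no replicate and no test was made.

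Positions are printed counted from 1, and a peak's position is the middle of its interval. Peaks were counted around the 8 anchors and in 25654 tiles (100 kb each, from the tile of the first peak to that of the last on each of 21 chromosomes) (Python 3.11.15, pandas 2.3.3, numpy 2.4.6, scipy 1.17.1). Counts of peaks planted in simulated lists were recovered. Poisson and binomial intervals are exact 95% intervals. They cover counting error alone and are too narrow where peaks sit together. Place is a row's rank in the file as a percentage of its length.

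Each gene was described by its peak nearest the anchor, widest, earliest in the list and fullest group, and by its peaks within 5 kb. Further peaks were picked after their values were seen. The members and lists were chosen with earlier results of these data known. Neighbouring genes and promoters come from RefSeq tables of GRCm38.p6, and promoters were searched without their transcribed bases. Alternatives changed the window, merged peaks, dropped narrow ones, split the list, moved the anchors and left out a gene.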

Additional observations from a re-analysis of the deposited data

How the results depend on the processing

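The number of peaks in the windows (171) stayed within 1.5 times with windows of 25 kb to a side, peaks of at least 50 bp, overlap in place of the centre, anchors moved by 5 kb either way, or Fosl1 left out. It was 69 with windows of 10 kb and 270 with 100 kb, 112 with peaks within 1000 bp merged, and 98 in the first 50% of rows and 73 in the last 50%, with a shorter or longer window or fewer peaks by construction. The median per window (22) was 8, 34, 14, 13 and 8.5 in the same order. The median width (115 bp) was 104 bp with windows of 10 kb and 143.5 bp after merging, where all merged regions had a median of 126 bp. The share with a neighbour within 1 kb (50.3%) was 31.6% for 500 bp and 74.9% for 2 kb, against 20.7% and 52.4% of all listed peaks. The share in the first 10% of the list (19.3%) was 13.5% for the first 5% and 30.4% for the first 25%. The share within 10 kb of the anchor (40.4%) was 25.7% for 5 kb and 71.9% for 25 kb. Leaving out Fosl1, or Atf3, which was chosen after seeing the data, moved none of the shares beyond its interval. Of the 9 settings that changed the counts of the windows, 6 kept each Jun family window below the other windows. The percentage of tiles as full as each gene's window shifted by at most 0.0468 points with tiles moved by 50 kb. Among tiles that hold a peak, added after seeing the data, it was 14.1% for Jund and 0.588% for Fosl1. No paired analysis was possible because the peaks come from 1 library. Without read depth, a place with no listed peak cannot be taken as unbound.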
